A study of Mus musculus with 5 samples.

Results

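The Cd209a and Mgl2 cells of mouse dermis were chosen by the transcripts they carried. A cell counted as a member with at least 10 transcripts, read as unique molecular identifiers (UMIs), of the antigen presentation gene Cd74 and at least 3 of the lectin genes Cd209a and Mgl2 together. It could hold at most 1 UMI of the complement C1q genes C1qa, C1qb and C1qc, at most 1 of Ccr7, Ccl22 and Fscn1, at most 2 of Apod, Cd209e and Rbp4, and at most 2 of Retnla, Fn1 and Lpl. The rule found 932 cells among 6162 cells kept, and among 2714 cells with at least 10 UMIs of Cd74, called Cd74-high here. The other 1782 Cd74-high cells were the comparison.

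The cells came from the dermis of C57BL/6 mice, sorted live for the leukocyte marker CD45, and sequenced from the 3' ends of transcripts on the 10X Genomics platform. Each of 5 groups had 1 library, without replicates. The ages are postnatal days 45 (P45), 50 (P50), 63 (P63) and 80 (P80), within the resting phase of the hair cycle (telogen), and the fifth group is P50_Depil5D, whose name gives 5 days after depilation. Whether P50 is its age at depilation or at collection, how many mice were pooled, and their sex are not given in the labels. No mutation or drug is named for any group.

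Dermal dendritic cells take up antigen in the skin, load peptides onto MHC class II molecules and carry them to lymph nodes. Type 2 conventional dendritic cells, which depend on the factor IRF4 and prime helper T cells, are the dendritic cells that typically carry the lectins CD209a, a mouse relative of human DC-SIGN, and MGL2 (CD301b). Both are C-type lectins, surface receptors that bind sugars on microbes and on glycoproteins. Cd74 encodes the invariant chain, which holds the peptide groove of MHC class II until antigen is loaded.

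P45 contributed 451 of the members, P50 164, P63 55, P80 53 and P50_Depil5D 209, with 106629 to 1338674 UMIs in their sums. Their median depth was 2581, 2432, 1833, 1974 and 2254 UMIs per cell in that order, and that of the other Cd74-high cells 2622, 2185, 2027.5, 943 and 1950. The libraries were not equal in quality. Members whose barcode was found again in a second library numbered 24 of 53 for P80, 12 of 55 for P63, 12 of 164 for P50, 14 of 209 for P50_Depil5D and 1 of 451 for P45. Of the P80 barcodes, 19 recurred in P50, 9 in P63 and 18 in P50_Depil5D, and there 19, 9 and 17 belonged to Cd74-high cells. Among the UMIs of ribosomal protein genes in a member, pseudogenes made up a median of 1.15%, 0.698%, 3.31%, 5.66% and 0.636% from P45 to P50_Depil5D. At least 2 UMIs of the T cell genes Cd3d, Cd3e and Cd3g and the keratinocyte genes Krt5 and Krt14 were found in 66, 6, 8, 13 and 3 members in the order of the libraries above. The part of these features in the differences between libraries was not tested, and values without such cells stand beside the results they touch.

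The genes of the rule describe the members and are not tested. Cd209a (mm10 chromosome 8, 3743397 to 3748984, minus strand) and Mgl2 (chromosome 11, 70130329 to 70137550, plus strand) were both present in 741 members (79.5%), while 61 (6.55%) had UMIs of Cd209a only and 130 (13.9%) of Mgl2 only. Levels are given as CPM, the UMIs of a gene per 1000000 UMIs of the summed cells. From P45 to P50_Depil5D, Cd209a stood at 1231, 1283, 761, 1679 and 1077 CPM. The P63 level was the lowest, and there 30.9% of members had Mgl2 only. Mgl2 stood at 1375, 1494, 2009, 1866 and 1725 CPM in the same order, and Cd74 at 39260, 47470, 48760, 59260 and 56520. The limit of 3 lectin UMIs cuts through a continuous range, since 178 members had exactly 3 and 153 Cd74-high cells that met every other limit had 2.

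Clec4b1, which encodes a further C-type lectin, and Ear2, which encodes a secreted ribonuclease, were given as markers of these cells and are described without a test too. Clec4b1 was found in 55.8% of members (95% interval 52.5 to 59.0), in 41.7% of the other Cd74-high cells and in 0.554% of cells with at least 3 Cd3 UMIs, which should lack it. Ear2 was found in 48.4%, 36.0% and 0.922%, respectively. The median depth of the T cells was 1423 UMIs, and that of members and others 2434 and 2393. With every cell thinned to 1500 UMIs and shallower cells left out (125 members, 318 others and 867 T cells), the shares of Clec4b1 were 38.9%, 30.9% and 0.395% and those of Ear2 38.3%, 27.7% and 1.19%. Over the libraries, the level of Clec4b1 in members was 377, 308, 381, 469 and 353 CPM, and that of Ear2 was 471, 449, 607, 553 and 480. The ratios of P80 over P45 (1.24 for Clec4b1, 95% interval 0.910 to 1.66, and 1.18 for Ear2, 0.885 to 1.54) and of P50_Depil5D over P50 (1.15, 0.914 to 1.44, and 1.07, 0.883 to 1.29) were within counting error. Ear2 has near-identical relatives, so how reads were split among them is uncertain.

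Markers of conventional dendritic cells were present but did not set the members apart. Itgax, which encodes CD11c, was found in 10.7% of members and 10.5% of other Cd74-high cells, against 0.861% of the T cells. The growth factor receptor gene Flt3 was found in 9.66% and 9.03%, against 0 of 1626 T cells, and Irf4 in 9.44% and 9.03%, against 3.14%. Xcr1, which marks type 1 dendritic cells, was found in 0.751% of members and 4.10% of the others, and the Langerhans cell gene Cd207 in 2.79% and 11.5%. No marker of natural killer cells had a UMI in the members outside P45, where they had 27 in all. The cells are therefore called Cd209a and Mgl2 cells here, by their rule.

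The share of these cells was the first comparison between the libraries. Among Cd74-high cells P45 had 31.9% (95% Clopper-Pearson interval 29.4 to 34.4), P50 33.3% (29.1 to 37.6), P63 33.3% (26.2 to 41.1), P80 36.6% (28.7 to 44.95) and P50_Depil5D 42.1% (37.8 to 46.6). The 4 undepilated libraries lay close together and their intervals overlapped. P80 over P45 gave a ratio of 1.15 (0.846 to 1.53). Depilated skin had the highest share here, with a ratio of 1.27 over P50 (1.03 to 1.56). P80 had a higher share than P50_Depil5D after thinning to 1500 UMIs (54.4% against 34.9%), with cells of at least 500 genes (45 of 90 Cd74-high cells against 173 of 400) and without cells low in ribosomal pseudogenes (43.4% against 42.3%). Age and depilation have no test here, each group being 1 library, and all intervals cover counting error only.

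**Figure D1:**
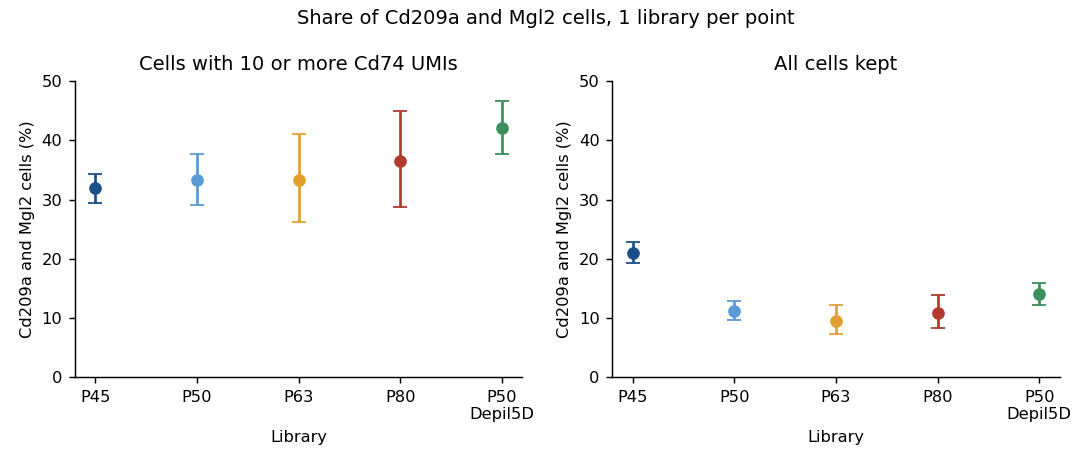
Share of the Cd209a and Mgl2 cells in each library (points, 1 library each) with exact 95% intervals (bars), among Cd74-high cells on the left and among all cells kept on the right, in percent. On the left the undepilated libraries lie at 31.9% to 36.6% and P50_Depil5D at 42.1%, and on the right P45 stands alone at 21.1%.

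Over all cells kept, P45 held 21.1% members, P50 11.2%, P63 9.55%, P80 10.9% and P50_Depil5D 14.0%. P45 was the highest, and Cd74-high cells were 66.1% of its cells and 28.7% to 33.7% of the cells of the other libraries. The ratio of P80 over P45 was then 0.516 (0.380 to 0.687), so its direction depended on the denominator. It was 1.57 (1.13 to 2.13) with cells of at least 500 genes and 1.75 (1.18 to 2.53) after thinning, where only 57 Cd74-high cells of P80 were deep enough. The ratio of P50_Depil5D over P50 was above 1 with both denominators, but its interval included 1 after thinning (1.10, 0.842 to 1.44), with at least 5 lectin UMIs (1.25, 0.964 to 1.62), with at least 20 Cd74 UMIs (1.22, 0.989 to 1.51) and without cells low in ribosomal pseudogenes (1.24, 0.992 to 1.56).

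The next question was which other genes set these cells apart from the Cd74-high cells around them. The interleukin-1 beta gene Il1b, the C-type lectin genes Cd209d, Cd209c and Clec4g, and genes of MHC class II were higher in the Cd209a and Mgl2 cells, and the macrophage genes Pf4 and Folr2, most chemokine genes and the Langerhans cell gene Cd207 were lower. UMIs were summed per library and class, and edgeR's quasi-likelihood test with the library as a block was run on 3988 genes, the 15 genes of the rule, Clec4b1 and Ear2 left out. Of these, 166 genes were higher (4.16%) and 202 lower (5.07%) at an adjusted p under 0.05. The other Cd74-high cells are mixed. C1q genes at 2 UMIs or more were found in 479 of them (26.9%), and 636 (35.7%) were over a limit of the Ccr7, Apod or Retnla sums. Of the rest, 310 (17.4%) had 1 or 2 lectin UMIs and 357 (20.03%) had none. Members and others were set apart by transcripts of the same cells, so these p-values tell how even a difference was over the 5 libraries, and are no independent sign of a cell type. Genes that go with C1q in macrophages were limited by the rule through it. Without the library as a block the counts were 11 and 61, and 45 of the 70 named genes that were called lost their call, Il1b and H2-Ab1 among them. Leaving out P50 gave 91 and 128, leaving out P45 105 and 140, and leaving out P50_Depil5D 100 higher genes.

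Il1b encodes a cytokine that starts inflammation. From P45 to P50_Depil5D its level was 1537, 1883, 1085, 2063 and 2294 CPM in members, and in the others 917, 671, 816, 1209 and 1367. It was higher in members in each of the 5 libraries, although the P63 members lay below the others of P80 and P50_Depil5D. The log2 difference was 0.99 ± 0.12 (SE, n = 5 libraries; edgeR adjusted p = 3.8e-05). A UMI of Il1b was found in 72.4% of members, 52.2% of the others and 4.18% of the T cells. Of the 6 genes tested among 19 cytokine genes of myeloid cells, Il1b alone was higher and none was lower, with a median log2 difference of 0.21 against -0.02 over all genes tested.

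**Figure D2:**
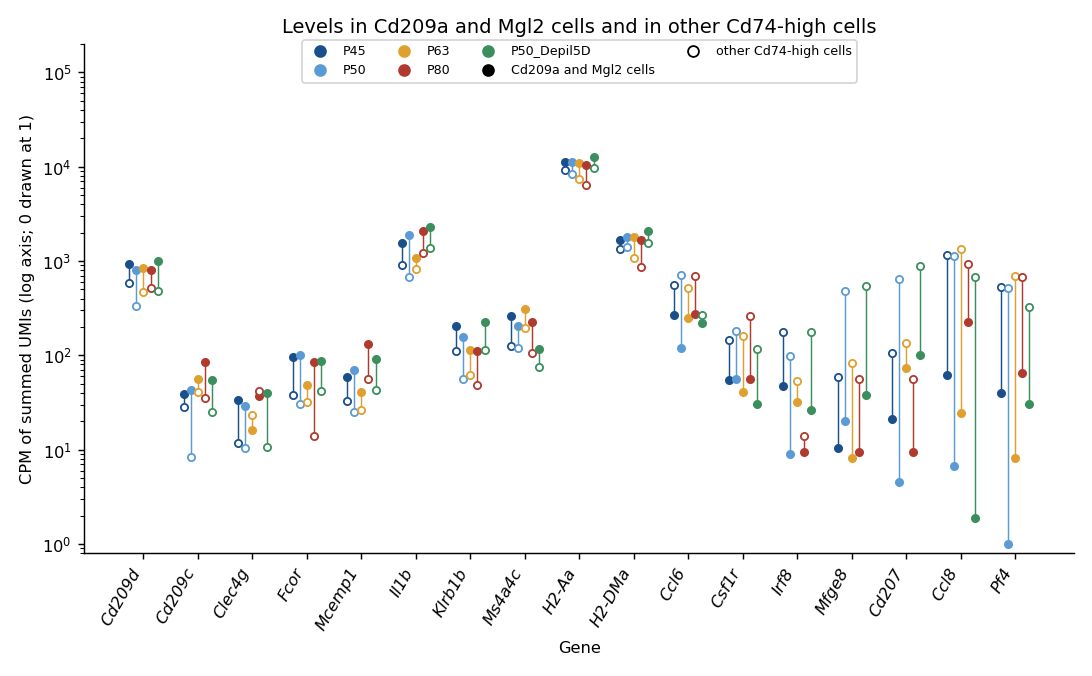
Levels of 17 named genes (CPM, log axis, a value of 0 drawn at 1) in the Cd209a and Mgl2 cells (filled points) and in the other Cd74-high cells (open points), joined within each library. For Cd209d, Cd209c, Fcor, Mcemp1, Il1b, Klrb1b, Ms4a4c, H2-Aa and H2-DMa the filled point is the upper one in every library, and for Ccl6, Csf1r, Irf8, Mfge8, Cd207, Ccl8 and Pf4 the lower one, whereas for Clec4g it is the lower one in P63 and P80.

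Genes of MHC class II presentation made up a second group. Of 13 tested genes of a list of 17, 6 were higher and 1 lower, with a median log2 difference of 0.53. Over all genes tested, 4.16% were higher and 5.07% lower, with a median of -0.02. H2-Ab1, the beta chain of I-A, had 17060, 18740, 20520, 20820 and 20560 CPM in the members from P45 to P50_Depil5D and 14340, 14260, 12450, 12650 and 15340 in the others. The lowest member library lay above the highest library of the others, and the log2 difference was 0.63 ± 0.07 (adjusted p = 1.95e-05). H2-Aa (0.60) and H2-Eb1 (0.57), its partner chain and the I-E chain, H2-DMa (0.65) and H2-DMb1 (0.45), which form the exchange factor for peptides, and Ifi30 (0.73), a lysosomal thiol reductase, were also higher. Lgmn, a lysosomal protease, was lower by far, with 38.8, 27.0, 8.10, 18.8 and 47.4 CPM against 168, 218, 126, 97.8 and 85.5 (log2 difference -1.97 ± 0.25, adjusted p = 6.3e-05). Ctss, which cuts the invariant chain, stood at 0.14 (adjusted p = 0.47). Cd74, of the same pathway, chose the cells of both classes.

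The genes with the largest positive differences among those at 50 CPM or more were Fcor, Cox6b2, Klrb1b, Mcemp1, Cd209c, Cd209d, Il1b, Ms4a4c, Flrt3, Cd300lg, AF251705 and Srgn. Klrb1b, an inhibitory receptor of the NKR-P1 family, had 205, 155, 113, 113 and 228 CPM in members from P45 to P50_Depil5D, and 110, 56.5, 61.7, 48.9 and 115 in the others, a log2 difference of 1.18 ± 0.14 (adjusted p = 3.1e-05). Ms4a4c, a membrane protein of the MS4A family, had 260, 206.7, 308, 225 and 116 CPM against 125, 118, 197, 105 and 76.1 (0.97 ± 0.13, adjusted p = 7.3e-05). Both were higher in members within each library, while levels of the 2 classes overlapped across libraries. Cox6b2, a cytochrome c oxidase subunit best known from testis, had 117, 110, 113, 150 and 131 CPM against 62.5, 44.0, 47.0, 48.9 and 66.8, and its classes did not overlap (1.21 ± 0.15, adjusted p = 4.1e-05). Cd300lg lost its call without the block, without cells of other lineages and with at least 5 lectin UMIs.

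Several of these genes are neighbours of Cd209a. Within 500 kb of it on chromosome 8, 10 other genes were tested, and 6 were higher and 1 lower, with a median log2 difference of 0.93. Of all genes tested, 4.16% were higher. Around Mgl2 on chromosome 11, where 18 genes were tested within the same distance, none was higher and 1, the chemokine gene Cxcl16, was lower, with a median of 0.07. This was looked at after the values had been seen. Fcor, named for its action on the factor FOXO1, lies 71035 bases from Cd209a (3671188 to 3672362, minus strand). It had 97.1, 101, 48.6, 84.4 and 87.2 CPM in members against 38.0, 30.4, 32.3, 14.0 and 41.4 in the others, with no overlap (log2 difference 1.49 ± 0.18, adjusted p = 3.9e-05). Mcemp1, a membrane protein of mast cells and other myeloid cells, lies next to it (3665754 to 3669259, plus strand) and differed by 1.17 ± 0.18 (adjusted p = 0.00037). Trappc5, part of a vesicle tethering complex, differed by 0.83 and Clec4g, a lectin known from liver endothelium, by 1.42, though Clec4g was higher in 3 of 5 libraries and lost its call without P45, without the block and by DESeq2.

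**Figure D3:**
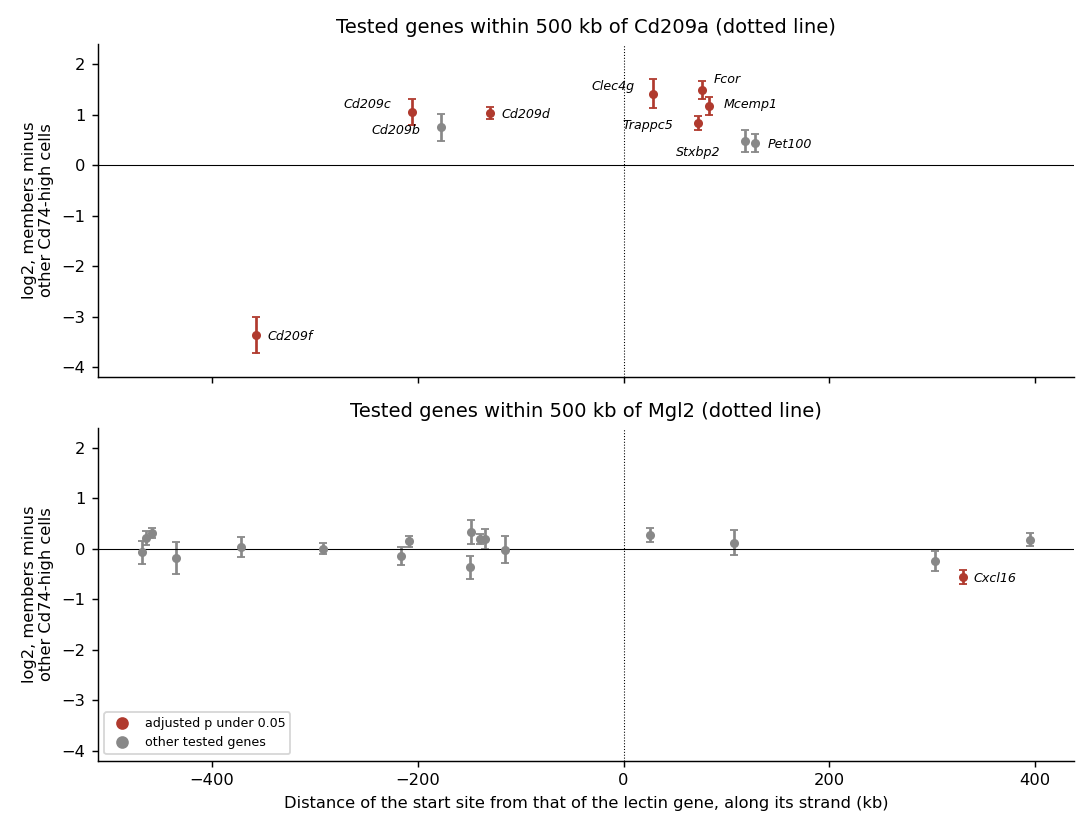
Log2 difference between Cd209a and Mgl2 cells and other Cd74-high cells (points, with SE) for tested genes within 500 kb of Cd209a (upper panel) and of Mgl2 (lower panel), against the distance between start sites in kb along the strand of the lectin gene. Red points had an adjusted p under 0.05. In the upper panel 6 genes lie above 0 in red and Cd209f below it, and in the lower panel only Cxcl16 is red.

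The CD209 lectins themselves went in both directions. Cd209d (3871824 to 3878555, minus strand) had 928, 798, 850, 807 and 994 CPM in members and 591, 332, 473, 524 and 477 in the others, with no overlap (1.04 ± 0.11, adjusted p = 1.5e-05). Cd209c (3940222 to 3954746) had 38.8, 42.7, 56.7, 84.4 and 55.0 against 28.2, 8.37, 41.1, 34.9 and 25.4 (1.06 ± 0.26, adjusted p = 0.015), a call that was lost without the block, without P50, without P50_Depil5D and with at least 20 Cd74 UMIs. Cd209b differed by 0.75 ± 0.27, which did not pass the test (adjusted p = 0.11). Cd209f was lower, with 4.48, 2.25, 0, 18.8 and 1.90 CPM in members against 42.0, 76.4, 41.1, 69.9 and 22.7 (-3.36 ± 0.37, adjusted p = 1.6e-05). These genes are close relatives in a cluster, and how reads that match several of them were counted is not given in the sources used here. Of the 16 C-type lectin genes tested in all, from a list of 33, 3 were higher and 3 lower (Cd209f, Cd207 and Clec12a). Clec10a (MGL1), the near twin of Mgl2 at a distance of 18647 bases, stood at 0.28 ± 0.14 (adjusted p = 0.26).

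The stretches before the start sites of Cd209a and Cd209d, the CD209 gene of the rule and the most abundant other one, are shown with that of Mgl2 because the first 2 genes were high in the same cells from one cluster. The sequences are from RefSeq on GRCm38.p6, in the direction of the gene, 250 bases that end with the start base: chr8:3748984-3749233 on the minus strand for Cd209a, chr8:3878499-3878748 on the minus strand for Cd209d and chr11:70130108-70130357 on the plus strand for Mgl2. Capitals mark matches, on either strand, to GGAANNGAAA, the composite element that PU.1 binds together with IRF4 or IRF8.
Cd209a: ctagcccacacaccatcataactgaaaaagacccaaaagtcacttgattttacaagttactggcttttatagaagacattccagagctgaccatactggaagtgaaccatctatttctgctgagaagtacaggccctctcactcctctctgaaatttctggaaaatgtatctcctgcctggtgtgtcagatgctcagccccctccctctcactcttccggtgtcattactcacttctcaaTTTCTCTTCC
Cd209d: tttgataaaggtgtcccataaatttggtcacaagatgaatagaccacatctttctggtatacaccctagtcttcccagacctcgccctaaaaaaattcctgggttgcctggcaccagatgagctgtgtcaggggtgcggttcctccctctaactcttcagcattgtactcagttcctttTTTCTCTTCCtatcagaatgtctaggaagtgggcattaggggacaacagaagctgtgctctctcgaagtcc
Mgl2: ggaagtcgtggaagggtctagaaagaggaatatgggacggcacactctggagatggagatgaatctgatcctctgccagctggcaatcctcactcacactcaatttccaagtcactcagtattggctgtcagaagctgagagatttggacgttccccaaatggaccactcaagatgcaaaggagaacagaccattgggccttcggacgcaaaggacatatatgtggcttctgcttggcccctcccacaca
Cd209a had 1 match, from base -9 to the start base, and Cd209d had 1, from base -70 to base -61, both on the strand opposite to the gene and with the same letters, and Mgl2 had none in this window. Of all 32851 windows of this length, 756 (2.30%) held a match, and of the windows of genes higher in the members, 4 of 160 (2.50%), against 72 of 3964 (1.82%) for all genes tested. The windows of Cd209c, Fcor, Mcemp1, Clec4g and Trappc5 held none. A match describes letters only, and binding was not measured.

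Genes lower in the members were led by those of macrophages. Pf4, a platelet and macrophage chemokine, had 39.6, 0, 8.10, 65.7 and 30.3 CPM in members from P45 to P50_Depil5D and 536, 522, 702, 671 and 325 in the others (log2 difference -4.04 ± 0.315, adjusted p = 1.5e-06). Among the macrophage markers tested, Pf4, Folr2 and F13a1 were lower, and Cd163, a haemoglobin scavenger receptor, was higher (0.51, adjusted p = 0.032, a call lost in 9 of 17 alternatives). The summed level of all 12 macrophage markers was 335 to 725 CPM in the members and 1501 to 2953 in the others, with Folr2 or Lyve1 at 0 in 4 libraries. Csf1r, the receptor for the macrophage growth factor CSF1, had 54.5, 56.2, 40.5, 56.3 and 30.3 CPM in members and 145, 180, 159, 259 and 118 in the others (-1.55 ± 0.15, adjusted p = 8.2e-06), with no overlap.

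Of the chemokine genes, 9 of 13 tested were lower and none higher, with a median log2 difference of -0.79. Among all genes tested, 5.07% were lower and 4.16% higher. Ccl8, which attracts monocytes and T cells, had 62.0, 6.74, 24.3, 225 and 1.90 CPM in members against 1165, 1125, 1351, 936 and 669 (-4.53 ± 0.41, adjusted p = 5.9e-06). Ccl7 (-1.80), Ccl17 (-1.21), Ccl6 (-1.11), Ccl5 (-1.66), Cxcl14 (-1.31), Cxcl2 (-0.79), Ccl2 (-0.78) and Cxcl16 (-0.56) followed. Of these, Ccl2 lost its call in 7 of 17 alternatives, Cxcl14 in 5 of 12 and Cxcl16 in 6 of 17. Ccl7 was higher in members in P80 (572 against 496 CPM), where 1 cell held 54 of its 61 UMIs. No chemokine receptor of 6 tested passed the test in either direction, Ccr2 standing at 0.27 (adjusted p = 0.20).

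Transcripts known from other cell types of skin were also higher in the others, and their source was not tested. Of 6 Langerhans cell markers, 5 were lower in members, with a median of -2.38. Cd207, which encodes langerin, had 20.9, 4.49, 72.9, 9.38 and 100 CPM against 105, 649, 135, 55.9 and 883 (-3.07 ± 0.38, adjusted p = 4.7e-05), and Mfge8, a bridging protein for dying cells, stood at -3.50 and Epcam at -2.42. All 9 keratinocyte markers tested and 4 of 6 T cell markers were lower, and Krt14 turned to 0.14 when cells with other-lineage UMIs were left out. The summed keratinocyte markers stood at 73.9 to 1289 CPM in the members and at 3382 to 8021 in the others, and T cell markers at 131 to 489 and 361 to 656. Lgals7 and Sfn, which are keratinocyte genes, stand among the 12 largest negative differences. So do Fgfbp1 (-3.61), the junction gene F11r (-3.58), the TAM receptor ligand gene Gas6 (-3.36), Cbr2 (-3.31) and the prostaglandin D synthase gene Hpgds (-3.25). Without cells that had other-lineage UMIs, Lgals7 (-0.39), Sfn (-0.42) and Krt5 (-0.3) lost their calls. Krt5 and Krt14 are among the genes by which those cells were left out, so their own shifts are no independent check.

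Most transcription factors of dendritic cells did not pass the test in either direction. Over all genes tested, 4.16% were higher and 5.07% lower. Of 20 tested transcription factor genes only Irf8, needed for type 1 dendritic cells and also present in other myeloid cells, was called. It was lower, with 47.8, 8.99, 32.4, 9.38 and 26.5 CPM against 177, 97.3, 52.9, 14.0 and 175 (-2.07 ± 0.22, adjusted p = 1.3e-05). Irf4 stood at 0.39 (adjusted p = 0.30), Flt3 at 0.48 (0.28) and Itgax at 0.22 (0.57). Of 12 surface and growth receptor genes tested, Cd52 was higher (0.45, a call lost in 3 of 17 alternatives) and Csf1r, Epcam and Cd24a (-1.78) were lower. Cd52 was lower in members in P50_Depil5D (2069 against 2164 CPM), and Cd24a was higher in members in P80 (46.9 against 41.9 CPM). The costimulatory gene Cd86 was lower by 0.49 and the ligand gene Tnfsf9, for the T cell receptor 4-1BB, higher by 0.85. Cd86 lost its call in 12 of 17 alternatives. Tnfsf9 was lower in members in P50_Depil5D (55.0 against 66.8 CPM). It lost its call without the block, without P45 and without cells of other lineages. Of 4 Fc receptor genes tested, the shared signalling chain Fcer1g (0.39) and the inhibitory receptor Fcgr2b (0.42) were higher. Fcgr2b was lower in members in P63 (332 against 361 CPM) and lost its call in 8 of 17 alternatives, and Fcer1g in 5. In the list of oncostatin M and JAK-STAT genes, the subject of the series, the kinase gene Pim1 (0.55, adjusted p = 0.00065) and the feedback gene Socs3 (0.66, adjusted p = 0.017) were higher and none of 13 tested was lower. Pim1 lost its call without shared barcodes, Socs3 without P45, P50 or P50_Depil5D, and both without the block. Among 20 immediate early and stress genes, Egr1 (-1.14), Jun (-0.56) and Fosb (-0.46) were lower and Nfkbia (0.32) and Hspa1b (0.34) higher. Hspa1b lost its call in 12 of 17 alternatives, Nfkbia and Fosb in 7 each, Jun in 3 and Egr1 in 1. Ly6e and Ifitm3 were the lower ones of 7 interferon-stimulated genes (-1.16 and -0.84).

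The rule sets aside 3 other kinds of C1q-low Cd74-high cells, and the members were compared with each, in 1 fit over 1030 genes with the library as a block. Cells with at least 3 UMIs of Ccr7, Ccl22 and Fscn1, genes of mature migrating dendritic cells, numbered 61 (P80, with 1 cell, was left out). Cells with at least 3 of Apod, Cd209e and Rbp4 numbered 275, and cells with at least 3 of Retnla, Fn1 and Lpl 259. Against Ccr7 cells 47 genes were higher (4.56%) and 65 lower (6.31%), against Apod cells 59 (5.73%) and 32 (3.11%), and against Retnla cells 82 (7.96%) and 62 (6.02%). RLE scaling moved these to 33 and 76, 34 and 34, and 71 and 69. The groups have 6 to 26 cells in most libraries. Leaving out 1 library moved the counts, and those against Apod cells were 9 and 6 without P50 and 20 and 21 without P45.

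Against the Ccr7 cells, the enzyme gene Il4i1, known from mature dendritic cells, was at 4.48, 13.5, 8.10 and 0 CPM in the members of P45, P50, P63 and P50_Depil5D and at 205.5, 166, 241 and 227 in the Ccr7 cells (log2 difference -5.10 ± 0.59, adjusted p = 1.9e-06). The groups did not overlap. Tbc1d4 (-3.65), the lipid carrier gene Fabp5 (-3.09), Tmem123 (-3.07) and the survival gene Bcl2a1b (-2.96) were the others named among the largest lower ones, and Ccl17, which attracts memory T cells, was lower too (-2.82, adjusted p = 7.1e-05). Higher in the members were the histone gene Hist1h2ap (4.53, a call lost in 9 of 11 alternatives), the complement factor gene Cfp (2.06), the Fc receptor gene Fcgr3 (2.03), Ccl6 (1.97) and the lysozyme gene Lyz1 (1.79). Ccl6 lost its call in 3 alternatives and Fcgr3 and Lyz1 in 2 each, without P45 among them for all of these. Il1b stood at -0.46 ± 0.26 (adjusted p = 0.30) and Cd209d at 0.65 ± 0.32 (adjusted p = 0.22), and neither passed the test. In the same libraries Flrt3 had 113, 237, 48.2 and 227 CPM in the Ccr7 cells, each above the members (81.4, 148, 40.5 and 197). Mcemp1 had 113, 118.5, 96.4 and 37.8 CPM in the Ccr7 cells and 59.0, 69.7, 40.5 and 91.0 in members, lower in Ccr7 cells only in P50_Depil5D.

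Against the Apod cells, members had more of Cxcl16, the receptor antagonist gene Il1rn and Cxcl2. The chemokine list went upward here, unlike against all other Cd74-high cells. Of 8 chemokine genes tested, 4 (Cxcl16, Cxcl2, Ccl9 and Ccl17) were higher in members and none lower, with a median of 0.86. Among all genes of this comparison, 5.73% were higher. Cxcl16 had 65.0, 110, 56.7, 37.5 and 154 CPM in members and 19.5, 0, 16.0, 0 and 0 in Apod cells (2.27 ± 0.44, adjusted p = 0.0020). Il1rn differed by 2.01, Cxcl2 by 1.65, Flrt3 by 1.49 and Cfp by 1.39, and of these Cxcl2 lost its call in 4 alternatives. Cd7, a T and NK cell membrane protein also found on some dendritic cells, was lower, with 205, 139, 81.0, 103 and 87.2 CPM against 559, 815, 479, 450 and 700 (-2.23 ± 0.28, adjusted p = 2.6e-05). The factor gene Tcf4, central to plasmacytoid dendritic cells, was lower (-1.84), as were Casp6 (-1.77), Ass1 (-1.60) and Ctnna1 (-1.40). Cd209d was lower in members as well (-0.77 ± 0.24, adjusted p = 0.049), with 1447, 2364, 751, 1079 and 1775 CPM in the Apod cells. High Cd209d was thus shared with the Apod cells, whose own rule uses Cd209e from the same cluster. Of 8 MHC class II genes tested, none was higher in members and 2, Ifi30 (-0.62) and H2-Aa (-0.32), were lower, with a median of -0.29. H2-Ab1 had 23670, 24560, 22430, 26620 and 23700 CPM in the Apod cells, above the members in each library, and did not pass the test (-0.29 ± 0.11, adjusted p = 0.105). Several genes that were higher in members than in all other Cd74-high cells were not called against the Apod cells. Ms4a4c had 249, 258, 447, 360 and 324 CPM there (-0.41 ± 0.25, adjusted p = 0.35), above the members in 4 of 5 libraries. Il1b stood at 0.55 ± 0.25 (adjusted p = 0.17) and Klrb1b at 0.64 ± 0.29 (adjusted p = 0.17). Cox6b2, not tested in this fit, had 131, 122, 144, 0 and 171 CPM in the Apod cells. Fcor had 76.45, 40.76, 79.89, 0 and 102.4 CPM in them, above the members in P63 and P50_Depil5D.

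Against the Retnla cells, the decoy receptor gene Il1r2 was higher in the members, with 78.4, 139, 97.2, 225 and 282 CPM against 30.2, 17.7, 0, 0 and 16.1 (2.47 ± 0.41, adjusted p = 9.99e-05). Ms4a4c (2.42), the prostaglandin synthase gene Ptgs2 (2.25), Klrb1b (2.25), Cd209d (2.18) and Il1b (1.17) were also higher. Ccl6 had 266, 119, 251.1, 272 and 220 CPM against 1807, 2177, 1877, 2059 and 1429 (-3.05 ± 0.25, adjusted p = 3.5e-09), and each member library lay far below each Retnla library. The lipid transfer gene Pltp (-2.55), Ecm1 (-2.52), the protease gene Ctsd (-2.46), Lyz1 (-2.30) and Batf3 (-1.63) were lower as well.

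**Figure D4:**
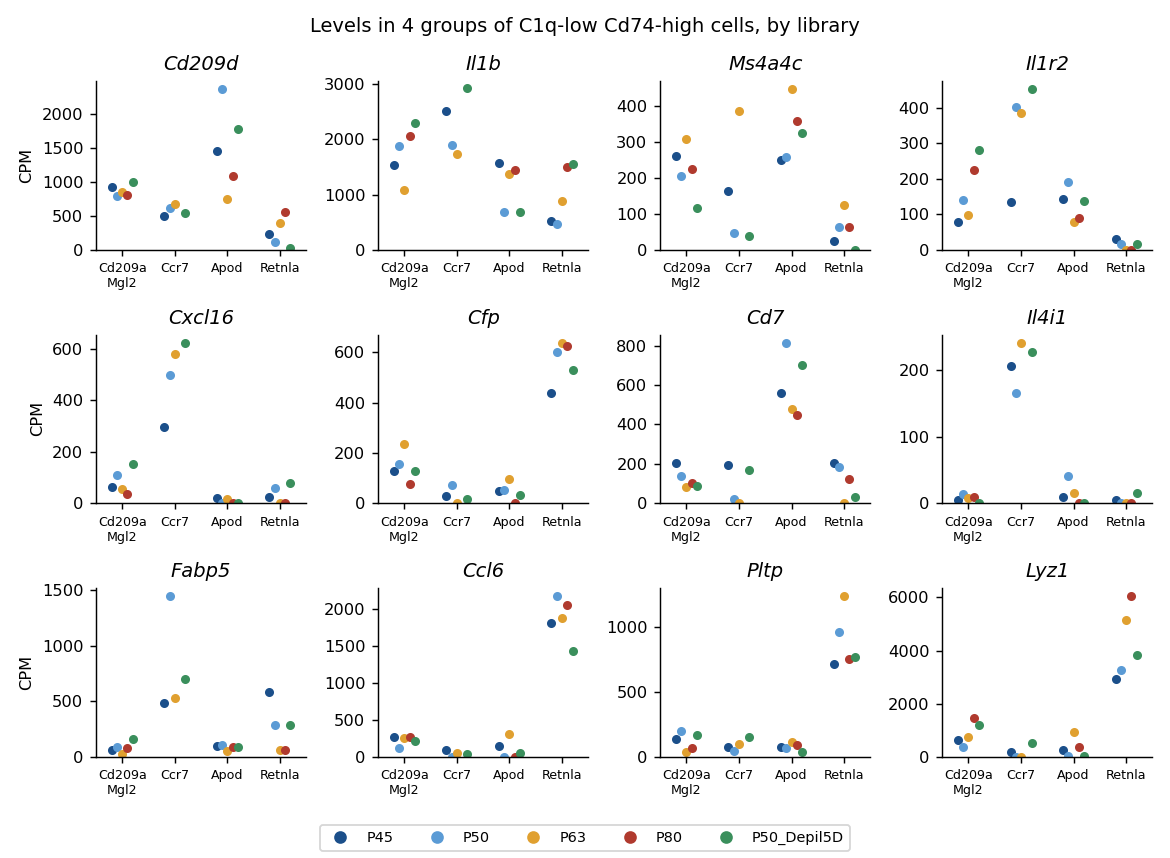
Levels of 12 genes (CPM) in the Cd209a and Mgl2 cells and in the Ccr7, Apod and Retnla cells, each point 1 library. In each library with Ccr7 cells, Cxcl16 and Il4i1 are highest in them, as is Fabp5 except in P45. Cd7 is highest in the Apod cells and Cfp, Ccl6, Pltp and Lyz1 in the Retnla cells.

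Members were also split by the lectin with more UMIs. The median member had 2 UMIs of Cd209a and 3 of Mgl2, so the leading lectin of a cell is uncertain. The number of genes called is therefore no measure of how alike the groups are. In a comparison added after the data were seen, 324 cells with more UMIs of Cd209a were set against 541 with more of Mgl2, and 67 with equal numbers were left out. Of 1403 genes tested, 3 were higher (0.214%) and 6 lower (0.428%) in the cells led by Cd209a. Ifitm3, an interferon-induced membrane protein, had 418, 1022, 479, 325 and 276 CPM in them and 195, 197, 83.1, 152 and 138 in the cells led by Mgl2, with no overlap (1.51 ± 0.20, adjusted p = 7.3e-05). Clec10a had 345, 400, 405, 255 and 195 CPM against 198, 145, 156, 76.0 and 63.4 (1.19 ± 0.19, adjusted p = 0.0013). It was thus higher where Mgl2, its near twin, was not the leading lectin, and reads could have been split between these 2 genes. Tmsb10 was higher by 0.35. Clec4n (dectin-2, -1.41), Il1b (-0.43), the protease inhibitor gene Cst3 (-0.37), H2-Eb1 (-0.29), the mitochondrial gene mt-Co1 (-0.27) and H2-Ab1 (-0.23) were lower. Ifitm3 and Clec10a were called in each fit that left out 1 library. Clec4n was called in the 2 of these in which it was tested, and each of the other 6 lost its call in at least 1. Without P45, and without P50_Depil5D, no gene was lower. Fcor stood at 0.22 ± 0.22 (adjusted p = 0.89) and Cd209d at -0.42 ± 0.14 (adjusted p = 0.25).

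The members of P80 and P45 were compared without a test, as 1 library each. Of 5072 genes with at least 20 UMIs over both, 390 (7.69%) were at least 2-fold higher in P80 and 1067 (21.0%) at least 2-fold lower. The interval of the ratio excluded 1 for 165 and 107 of them. The sums held 106629 UMIs in P80 and 1338674 in P45. Without shared barcodes the counts were 615 and 1477. The median log2 ratio of all genes was -0.14, and TMM scaling moved it to -0.37 and the counts to 225 and 1377.

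The chemokine gene Ccl7 had the largest ratio, 14.2 (9.67 to 20.8), with 40.3, 8.99, 72.9, 572 and 58.8 CPM from P45 to P50_Depil5D. A single P80 cell held 54 of the 61 UMIs, and without it the level was 67.7 CPM. Without shared barcodes, 3 UMIs (61.5 CPM) were left in P80. Of the UMIs of Ccl2 and Ccl8 in P80, also at least 2-fold higher, 26 of 38 and 18 of 24 came from 1 cell. Lrrc58, a protein with leucine-rich repeats, was more evenly spread: 56 UMIs in 30 of 53 cells of P80 against 108 in 92 of 451 cells of P45, with levels of 80.7, 98.9, 308, 525 and 58.8 CPM in the order of the libraries and a ratio of 6.51 (4.63 to 9.07). P63 and P80 were the high libraries, as they were for the share of ribosomal pseudogenes, whose part in this was not tested. Gclm, a subunit of the enzyme that starts glutathione synthesis, had the same order, with 25.4, 29.2, 105, 159 and 17.1 CPM and a ratio of 6.28 (3.29 to 11.6). Sympk, Loxl2, Myc, Dclre1c and Map2k7 had ratios of 6.28 to 9.21 from 7 to 11 UMIs in P80. Of 14 genes counted in the MHC class II list, 1 was past 2-fold upward, against 7.69% of all genes. This was H2-DMb2, a second beta chain of the peptide exchange factor, at 116.5, 142, 170, 356 and 210.5 CPM (3.06, 2.09 to 4.38). Rfxap, Lgmn and H2-Ob of the same list were past 2-fold downward, from 0, 2 and 3 UMIs in P80, and the interval of the ratio included 1 for each.

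**Figure D5:**
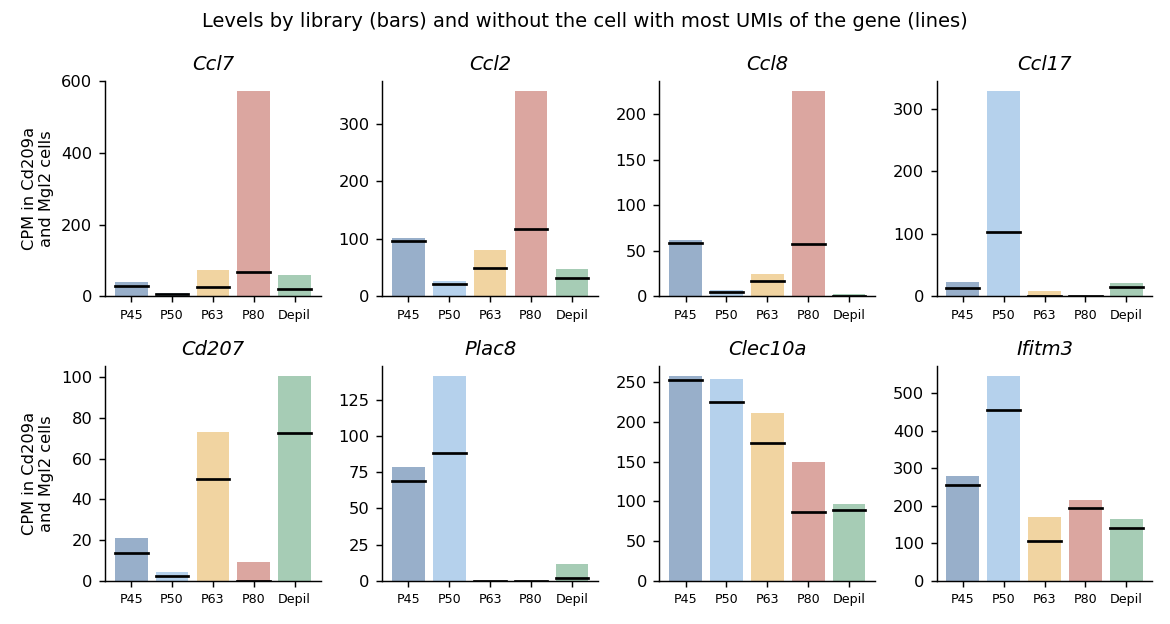
Level of 8 genes in the summed Cd209a and Mgl2 cells of each library (bars, CPM; Depil stands for P50_Depil5D) and the level without the single cell that held most UMIs of that gene (black lines). The P80 bar of Ccl7 drops from 572 to 67.7 CPM and the P50 bar of Ccl17 from 328 to 103, while Clec10a and Ifitm3 change less.

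Genes lower in P80 included genes of other cell types. The haemoglobin gene Hbb-bs had 661 UMIs in P45 and 0 in P80, a ratio of at most 0.0570 with P80 set to a floor of 3 UMIs. Of the 661, 418 came from 1 cell, and all other libraries had 0 or 1. All 8 T cell markers were at least 2-fold lower, among them Cd3d with 91.1, 20.2, 16.2, 9.38 and 24.7 CPM. Their sum was 654 UMIs in P45 (489 CPM), and 14 (131 CPM) in P80, where Cd28, Cd2, Lck and Lat were at 0. All 5 fibroblast genes tested, Col3a1, Col1a2, Dcn, Sparc and Col1a1, were at least 2-fold lower likewise. The part of T cell and fibroblast RNA in the members of P45 was not tested. Without cells that had other-lineage UMIs, 377 genes were higher and 831 lower. The kinase gene Lyn (80.7, 76.4, 48.6, 9.38 and 47.4 CPM), the inhibitory receptor gene Cd300a (98.6, 92.1, 64.8, 9.38 and 62.6) and the factor gene Mef2c (69.5, 74.2, 72.9, 9.38 and 20.9), which myeloid cells use themselves, each had 1 UMI in P80. Their ratios of 0.0951 to 0.135 had intervals with upper ends of 0.539 to 0.771.

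The members of P50_Depil5D and P50 were set side by side in the same way. Of 3328 genes with at least 20 UMIs over both libraries, 61 (1.83%) were at least 2-fold higher in P50_Depil5D and 267 (8.02%) at least 2-fold lower, and the interval excluded 1 for 37 and 181. The split depended on the scale: with TMM scaling, which moved the median log2 ratio from -0.19 to 0.07, the counts were 138 and 124. Ifitm3 was lower, with 279, 546, 170, 216 and 165 CPM from P45 to P50_Depil5D, a ratio of 0.302 (0.234 to 0.387). P50 was the high library for this gene, and 42 of its 243 UMIs came from 1 cell. Clec10a had 258, 254, 211, 150 and 96.7 CPM and a ratio of 0.381 (0.268 to 0.535), with P50_Depil5D the lowest. The immediate early gene Fos stood at 2436, 1279, 2219, 3245 and 631 CPM (ratio 0.494, 0.430 to 0.566), the 1 gene past 2-fold of 20 in its list, and Ly6e at 212, 258, 130, 131 and 110 (0.426, 0.305 to 0.588). Cxcr4, the receptor for the chemokine CXCL12, had 134, 144, 56.7, 75.0 and 53.1 (0.369, 0.228 to 0.584).

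Of 9 cell cycle genes counted, 4 were at least 2-fold lower in P50_Depil5D: Ube2c, Ccnb2, Top2a and Birc5. Over all genes, 8.02% were at least 2-fold lower, both counts without TMM scaling. The list median was -0.80 against -0.17 over all genes. Top2a, the topoisomerase of dividing cells, had 35.1, 69.7, 105, 0 and 13.3 CPM and a ratio of 0.191 (0.0708 to 0.441). In P50 its 31 UMIs came from 13 of 164 cells and in P50_Depil5D its 7 from 6 of 209, and P63 had 13 from 3 cells, all with shared barcodes. Spc24, a kinetochore protein, was lower too (0.141, 0.0265 to 0.482), as were Rmi2 (0.0734), Plac8 (0.0804), Cnp (0.169) and Pi16 (0.192). Ccl17 had 23.2, 328, 8.10, 0 and 20.9 CPM and a ratio of 0.0636 (0.0311 to 0.117), but 101 of the 146 UMIs of P50 were in 1 cell, and P50 had 103 CPM without it. Plac8, a marker of monocytes, had 63 UMIs in 14 cells of P50 and 6 in 2 cells of P50_Depil5D.

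Among the genes higher after depilation, Il1rn, which blocks the interleukin-1 receptor, had 138, 83.1, 146, 113 and 201 CPM (ratio 2.42, 1.65 to 3.62). Its level in P50_Depil5D was the highest and that in P50 the lowest of the 5. Il1b moved less (1.22, 1.11 to 1.33). The lectin gene Cd209b (2.74, 1.41 to 5.75) was also past 2-fold. It had 66.5, 27.0, 24.3, 84.4 and 73.9 CPM in the order of the libraries, so P50 was low and P50_Depil5D lay below P80. Cd207 had the largest ratio, 22.4 (5.89 to 189), from 53 UMIs against 2, but 51 of the 53 were in 5 cells, 1 of which also had Epcam. Thbs1 (13.5, 3.44 to 116) had 32 UMIs in 11 cells, and its levels from P45 to P50_Depil5D were 42.6, 4.49, 0, 9.38 and 60.7 CPM. Ccl7 (6.54, 2.31 to 25.5) had 20 of its 31 UMIs in 1 cell. Cwc25, Ccndbp1, Hivep1 and Por had ratios of 3.59 to 6.12 from 17 to 29 UMIs against 3 or 4. No gene of 12 of MHC class II or of 12 of the oncostatin M and JAK-STAT list was past 2-fold. Over all genes, 1.83% were past it upward and 8.02% downward. For lists this short, none lies near those shares and is no sign of unusual stability.

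Osm, which encodes the cytokine oncostatin M, was rare in these cells. From P45 to P50_Depil5D it had 6, 21, 0, 0 and 16 UMIs, or 4.48, 47.2, 0, 0 and 30.3 CPM, and 9 of the 16 were in 1 cell. A UMI was found in 26 of 932 members (2.79%), in 3.65% of the other Cd74-high cells and in 0.984% of the T cells. P50_Depil5D and P50 did not differ beyond counting error (0.643, 0.314 to 1.29), and at the depth of P80 a level like that of P45 was not detectable.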

How the data were processed

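Live CD45+ dermal cells of 5 libraries were analysed. The authors deposited whole-number UMI counts per gene and barcode. Per the submitters' processing notes, the build was mm10 and Seurat was used. No label or header names the aligner, the counter or the annotation. Barcodes with under 200 genes or over 10% mitochondrial UMIs were removed, which left 6162 of 6223. Scrublet (scanpy 1.11.5) scored doublets, and cells over 0.2 were removed in an alternative only. Members were found by the rule in the report. The members, lists and comparisons were chosen with earlier results of these data known.

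UMI counts per library held 1032621 to 7491878 UMIs. They were summed per library and class, with sums under 5 cells left out, filtered with filterByExpr, scaled by TMM and tested with edgeR 4.0.16 (glmQLFit, glmQLFTest, library as block), with Benjamini-Hochberg adjustment over all genes tested. Both classes came from the same cell suspension of each library, which pairs them. The p-values measure how even the difference between classes within a library was over 5 libraries that differ in age and treatment. DESeq2 1.42.0, RLE scaling, no filter on low counts, other thresholds and leaving out single libraries or kinds of cells were alternatives. Between libraries there is no test. Ratios of CPM have exact conditional 95% intervals, and shares exact Clopper-Pearson intervals, both for counting error only. Log2 ratios between libraries have 10 CPM added. The fit was checked on simulated counts.

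Named genes were, of those with an adjusted p under 0.05, the same direction in every library and at least 50 CPM in the higher class, the 12 with the largest log2 difference in each direction, or 5 for each of the 3 other classes. Between libraries they were the 8 largest ratios in each direction with an interval that excluded 1. Members of the fixed lists, which also hold Clec4g, were named too. Unnamed gene models, ribosomal and mitochondrial genes were counted, not named, except mt-Co1. Coordinates are from GENCODE vM21 and promoter sequences from RefSeq, both on mm10 (GRCm38). An item that the rule would name is not reported here.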

Additional observations from a re-analysis of the deposited data

How the results depend on the processing

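Without the library as a block, 11 genes were higher and 61 lower than in other Cd74-high cells (166 and 202 with it). The cells of both classes come from the same library, so the block pairs them. The lower genes numbered 431 without a filter on low counts, 119 with 20 UMIs of Cd74, 129 without cells of other lineages and 125 by DESeq2. Leaving out 1 library gave 91 to 186 higher and 128 to 203 lower genes. Without a filter on low counts, higher genes numbered 257, 240 and 215 against Ccr7, Apod and Retnla cells, and genes lower than in Retnla cells 112. Without cells low in ribosomal pseudogenes, the higher genes were 30 and 27 against Ccr7 and Apod cells. With 5 UMIs for these gates they were 30, 14 and 49 for Ccr7, Apod and Retnla cells, with 16 lower for Apod. Against Apod cells they were 34 by RLE scaling, 27 without other lineages and 22 without shared barcodes, with 21 lower. Leaving out 1 library gave, for higher and lower genes, 22 to 37 and 43 to 82 against Ccr7, 9 to 84 and 6 to 38 against Apod and 30 to 90 and 38 to 73 against Retnla cells, and 2 to 4 and 0 to 11 in the comparison of lectins. Between P80 and P45, the higher genes were 225 with TMM, 111 with 50 UMIs and 615 without shared barcodes, and the lower ones 352 with 50 UMIs. After depilation, TMM gave 138 and 124 and a minimum of 50 UMIs 15 and 44. The P80 over P45 ratio of shares was 0.516 over all cells kept, 1.57 with 500 genes and 1.75 after thinning. Over all named genes and alternatives, 1545 values kept direction and call, 186 lost the call, 5 gained one and 1 reversed. The reversed value was that of Krt14 (0.14 without cells of other lineages, which its own UMIs help to define). The cause of the changes was not tested, apart from fewer genes or cells where a setting removes them. The depth of P80 and P63 limits every ratio on them. The settings without cells low in ribosomal pseudogenes, those without other lineages for Ccr7, Apod and Retnla cells, and all of the comparison of lectins were chosen after seeing the data.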
